A study of Schizosaccharomyces pombe with 8 samples.

Results

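Of 7000 gene IDs counted in total RNA of the fission yeast Schizosaccharomyces pombe, 5186 were coding IDs by name and 4774 of these had a wild-type mean of at least 5 CPM (counts scaled to the total of the library). A set of 23 coding genes was chosen by these levels, with the rule that the mean CPM in each of 3 RNA polymerase II mutants was at most 0.67 of the wild-type mean. The rule first found 34 genes, and 11 were left out by ID: rpb1, mei2, pfl7, mfm2, and 7 genes of the SPBC460, SPAC977 and SPBPB10D8 groups. Because the mutant to wild-type ratios chose the 23 members, these ratios are given below as a description and carry no test.

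The wild type (WT) had the genotype h- Rpb3-3HA::hphMX6, so it carried a tagged polymerase subunit, as did every mutant. The mutants were h- rpb1 S2A::kanMX6 Rpb3-3HA::hphMX6, h- rpb1 S7A::kanMX6 Rpb3-3HA::hphMX6 and h- rpb1 Y1F::kanMX6 Rpb3-3HA::hphMX6. They change serine 2 to alanine, serine 7 to alanine or tyrosine 1 to phenylalanine in Rpb1, numbered by position in the repeats of its tail, described below. Each of the 4 strains gave 2 libraries from cultures in YES, a rich medium, at an optical density of 0.5. The residue change and the kanMX6 marker at rpb1 cannot be told apart, and the labels name 1 strain for each allele.

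Rpb1 is the largest subunit of RNA polymerase II, and its tail is a run of short repeats whose residues are phosphorylated as the enzyme moves along a gene. Phosphorylated repeats recruit factors for elongation, histone modification and RNA 3′ end formation. In fission yeast the regions next to the telomeres are rich in genes for nutrient uptake and for use of alternative nutrients, and many of them respond to starvation, stress or changes in chromatin. Genes of mating and meiosis are likewise kept low in rich medium.

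Library totals ran from 13391705 to 23081870 counts. rpb1 itself was at 701 and 688 CPM in WT and at 375 to 459.9 CPM over the 6 mutant libraries. The 6 M-cell genes checked against the h- label summed to 159 and 165 CPM in WT, and the 3 P-cell genes to 37.5 and 37.6 CPM. The M-cell sum came mostly from mam1 (88.5 and 90.3 CPM), mfm2 and mam3, while mfm1, mfm3 and mam2 were lower in WT than the P-cell genes. Over the 6 mutant libraries the M-cell sums were 98.0 to 141 CPM and the P-cell sums 33.6 to 52.8 CPM. Replicates differed by more than counting noise, with a mean chi-square per gene between 4.93 and 10.97. Whether both libraries of a strain were grown separately is not stated in the labels, and the spread that p-values measure may therefore be technical. In a bulk culture, fewer cells expressing a gene and less RNA per cell cannot be told apart.

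By annotated role, grouped after their values were seen, the 23 members comprised 6 transporters, 10 enzymes, 4 regulators of transcription or signalling, and 3 others. Their WT means ran from 6.27 to 359.9 CPM with a median of 18.5 CPM, and the lowest count of a member was 39 in a WT library and 12 in a mutant library. Summed over members, the level was 1362 and 1353 CPM in WT, 629 and 613 in S2A, 728 and 669.6 in S7A, and 724 and 706 in Y1F. For S2A, S7A and Y1F the median ratios to WT were 0.47, 0.50 and 0.49, against 1.01, 1.00 and 1.05 for all coding IDs of at least 5 CPM. In 22 members both WT libraries lay above all 6 mutant libraries, which 10.6% of the 4774 coding IDs also showed; the rule used this contrast. The exception was mug14. Only 5 members, SPBC1683.04, fau1, grt1, SPAC1039.08 and map1, were at or below 0.5 of WT in every mutant.

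**Figure D1:**
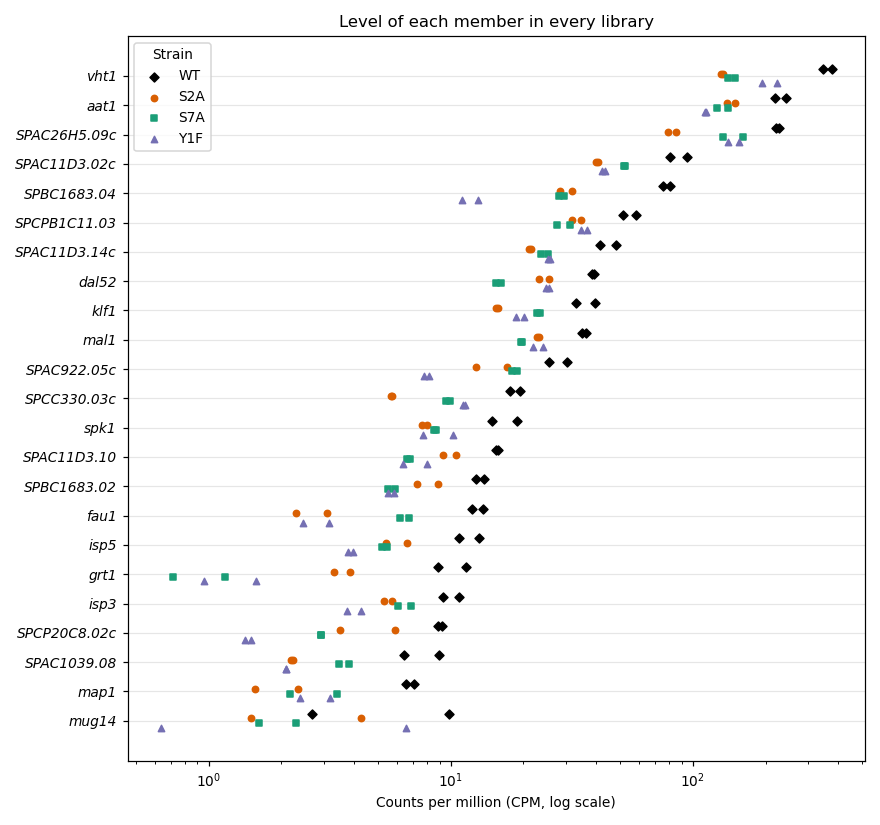
Level of each of the 23 members in each of the 8 libraries, in CPM on a log axis, ordered by WT mean. Black diamonds are WT, and the coloured points are S2A, S7A and Y1F; the WT points lie right of all mutant points in 22 members and not in mug14.

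Among the transporters the most counts belonged to vht1 (SPAC1B3.16c), which carries the vitamin biotin into the cell. It stood at 375 and 345 CPM in WT, 131 and 133 in S2A, 149.8 and 139.8 in S7A, and 223 and 193 in Y1F. Y1F was the highest of the mutants for vht1 and did not overlap the other mutants. The difference between mutants, which the rule did not use, was −0.63 ± 0.072 (log2 fold change ± SE) for S2A against Y1F (adjusted p = 1.52e-05) and 0.47 ± 0.071 for Y1F against S7A (adjusted p = 0.000179). S2A and S7A differed by −0.17 ± 0.072 (adjusted p = 0.0688).

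The amino acid permease gene aat1 (SPBC359.03c) had 219.6 and 243 CPM in WT, 149 and 138 in S2A, 141 and 126 in S7A, and 114 and 112 in Y1F. Here Y1F was the lowest mutant. It was below S2A (S2A against Y1F, 0.36 ± 0.055, adjusted p = 0.000177) and below S7A (−0.29 ± 0.055, adjusted p = 0.00105). isp5 (SPAC1039.09), another amino acid transporter, was likewise lowest in Y1F and had far fewer counts, at 13.1 and 10.8 CPM in WT, 5.43 and 6.61 in S2A, 5.48 and 5.20 in S7A, and 3.96 and 3.77 in Y1F. Its S2A to Y1F difference of 0.64 ± 0.19 (adjusted p = 0.0126) lost its call without S2A replicate 2 (0.49) or Y1F replicate 2 (0.60).

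The gene annotated as a dipeptide transporter, dal52 (SPBC1773.15), was lowest in S7A, with 38.5 and 39.2 CPM in WT, 25.5 and 23.3 in S2A, 16.1 and 15.4 in S7A, and 24.8 and 25.4 in Y1F. S2A and Y1F overlapped, and S7A lay below both. The differences were 0.60 ± 0.077 for S2A against S7A (adjusted p = 3.14e-05) and 0.63 ± 0.077 for Y1F against S7A (adjusted p = 3.18e-05). SPAC922.05c, annotated only as a transporter, was lowest in Y1F, with 25.4 and 30.4 CPM in WT, 17.1 and 12.7 in S2A, 18.0 and 18.8 in S7A, and 7.77 and 8.14 in Y1F. Y1F against S7A gave −1.26 ± 0.14 (adjusted p = 1.22e-05) and S2A against Y1F 0.93 ± 0.14 (adjusted p = 0.000188). S2A against S7A was −0.33 ± 0.12 (adjusted p = 0.0401). That call was lost without S2A replicate 2 (−0.18) or either S7A library, by DESeq2, with TMM on coding genes, with a filter of 5 CPM and with a replicate block.

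SPCPB1C11.03, annotated as a cysteine transporter, had 58.5 and 51.4 CPM in WT and 27.4 to 36.5 CPM over the 6 mutant libraries, with Y1F highest, S2A next and S7A lowest, without overlap but with narrow gaps. Y1F against S7A was 0.24 ± 0.090 (adjusted p = 0.0453), a call lost on leaving out S2A replicate 1 (0.22), S2A replicate 2 (0.22), S7A replicate 2 (0.15), Y1F replicate 1 (0.26) or Y1F replicate 2 (0.20), by DESeq2 (0.22) and with RLE scaling (0.22).

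The 10 enzyme genes ranged from 0.21 to 0.65 of WT in S2A, from 0.37 to 0.66 in S7A and from 0.15 to 0.66 in Y1F. SPAC26H5.09c, of an oxidoreductase family, had 221 and 226 CPM in WT, 85.4 and 78.8 in S2A, 162 and 134 in S7A, and 139 and 156 in Y1F. S2A alone lay far below, under S7A by −0.88 ± 0.074 (adjusted p = 7.97e-07) and under Y1F by −0.83 ± 0.075 (adjusted p = 2.01e-06). SPCC330.03c, annotated as a cytochrome b5 reductase, was also lowest in S2A, with 19.3 and 17.6 CPM in WT, 5.68 and 5.73 in S2A, 9.95 and 9.62 in S7A, and 11.2 and 11.5 in Y1F. Its S2A level was below S7A by −0.82 ± 0.13 (adjusted p = 0.000168) and below Y1F by −0.98 ± 0.13 (adjusted p = 5.01e-05).

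fau1 (SPBC1703.08c), a 5-formyltetrahydrofolate cyclo-ligase of folate metabolism, parted the mutants differently. It had 13.6 and 12.3 CPM in WT, 3.09 and 2.29 in S2A, 6.73 and 6.20 in S7A, and 3.136 and 2.46 in Y1F. S2A and Y1F overlapped (0.016 ± 0.22, adjusted p = 0.961), while S7A was above S2A (S2A against S7A, −1.27 ± 0.19, adjusted p = 0.000112) and above Y1F (Y1F against S7A, −1.29 ± 0.19, adjusted p = 0.000147). SPAC1039.08, annotated as a serine acetyltransferase, was also highest in S7A among the mutants, with 8.92 and 6.43 CPM in WT, 2.19 and 2.23 in S2A, 3.46 and 3.81 in S7A, and 2.09 and 2.09 in Y1F. S2A against S7A was −0.77 ± 0.23 (adjusted p = 0.0148) and Y1F against S7A −0.86 ± 0.24 (adjusted p = 0.00979). The first call was lost without S2A replicate 1 (−0.735) or S7A replicate 2 (−0.67), and the second without S7A replicate 2 (−0.76) or Y1F replicate 2 (−0.85).

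The glycosyl hydrolase gene SPBC1683.04 was lowest in Y1F. Its libraries held 75.5 and 80.9 CPM in WT, 31.6 and 28.4 in S2A, 28.01 and 29.4 in S7A, and 12.99 and 11.1 in Y1F. S2A and S7A overlapped, and Y1F lay below both, by 1.35 ± 0.092 for S2A against Y1F (adjusted p = 1.56e-07) and −1.33 ± 0.091 for Y1F against S7A (adjusted p = 2.01e-07). mal1 (SPBC1683.07), a maltase that splits maltose to glucose, is its near neighbour and had 34.8 and 36.3 CPM in WT, 22.8 and 23.2 in S2A, 19.7 and 19.5 in S7A, and 21.95 and 24.1 in Y1F. None of the 3 mutant pairs was called for mal1, with differences from 0.003 ± 0.078 (S2A against Y1F, adjusted p = 0.977) to 0.19 ± 0.078 (S2A against S7A, adjusted p = 0.0585).

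SPAC11D3.02c, of an acetyltransferase family, had 80.6 and 94.7 CPM in WT and 39.8 to 52.5 CPM in the mutants, with S7A above S2A and Y1F. S2A against S7A was −0.42 ± 0.068 (adjusted p = 0.000207) and Y1F against S7A −0.34 ± 0.067 (adjusted p = 0.00119). SPAC11D3.14c, annotated as an oxoprolinase, had 48.4 and 41.3 CPM in WT and 21.0 to 25.7 CPM in the mutants. Its calls were close to the threshold, at −0.25 ± 0.093 for S2A against S7A (adjusted p = 0.0418) and −0.25 ± 0.094 for S2A against Y1F (adjusted p = 0.0443). Both were uncalled without any 1 of the 6 mutant libraries, with values from −0.29 to −0.21 and from −0.28 to −0.20. Both were also uncalled by DESeq2 (−0.26 and −0.25), with TMM on coding genes (−0.21 and −0.22) and with a filter of 5 CPM (−0.23 and −0.24).

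SPAC11D3.10, of the nifs cysteine desulfurase family, had 15.4 and 15.7 CPM in WT, 10.6 and 9.30 in S2A, 6.79 and 6.59 in S7A, and 7.99 and 6.37 in Y1F. SPBC1683.02, of an adenine or adenosine deaminase family, had 12.7 and 13.7 CPM in WT, 7.27 and 8.90 in S2A, 5.90 and 5.50 in S7A, and 5.53 and 5.82 in Y1F. Both were highest in S2A among the mutants. Against S7A, S2A was higher by 0.54 ± 0.14 for SPAC11D3.10 (adjusted p = 0.00575; 0.46 and uncalled without S2A replicate 1). For SPBC1683.02 it was higher by 0.46 ± 0.15 (adjusted p = 0.0215). That call was lost without S2A replicate 2 (0.29), S7A replicate 1 (0.49) or S7A replicate 2 (0.42), and by DESeq2 (0.45). Against Y1F, S2A was higher by 0.51 ± 0.14 for SPAC11D3.10 (adjusted p = 0.00942), uncalled without S2A replicate 1 or Y1F replicate 2. For SPBC1683.02 it was higher by 0.51 ± 0.15 (adjusted p = 0.0156), uncalled without S2A replicate 2 or either Y1F library and by DESeq2.

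The 4 regulators include grt1 (SPBPB8B6.04c), annotated as a transcription factor, whose ratios to WT were the lowest of the set in S7A and Y1F. It had 8.85 and 11.6 CPM in WT, 3.29 and 3.84 in S2A, 0.715 and 1.17 in S7A, and 1.57 and 0.955 in Y1F. S2A lay above both other mutants, by 1.81 ± 0.31 against S7A (adjusted p = 0.000304) and 1.57 ± 0.30 against Y1F (adjusted p = 0.001). klf1 (SPAC1039.05c), a zinc-cluster transcription factor needed for long survival of quiescent cells, was lowest in S2A, with 39.4 and 33.0 CPM in WT, 15.4 and 15.6 in S2A, 23.3 and 22.7 in S7A, and 20.2 and 18.6 in Y1F. For klf1, S2A against S7A was −0.61 ± 0.10 (adjusted p = 0.000339). S2A against Y1F was −0.30 ± 0.11 (adjusted p = 0.0369), uncalled without S2A replicate 1 (−0.25), S2A replicate 2 (−0.33), Y1F replicate 1 (−0.24) or Y1F replicate 2 (−0.37), by DESeq2 (−0.30) and with TMM on coding genes (−0.27).

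The remaining regulators belong to mating. spk1 (SPAC31G5.09c), the MAP kinase of the pheromone response, had 18.7 and 14.8 CPM in WT, 7.62 and 8.024 in S2A, 8.70 and 8.53 in S7A, and 7.69 and 10.2 in Y1F. map1 (SPAC11E3.06), a MADS-box factor for P-cell genes, had 7.07 and 6.57 CPM in WT, 2.34 and 1.55 in S2A, 3.40 and 2.17 in S7A, and 2.39 and 3.18 in Y1F. The mutants overlapped except that S2A lay below S7A for spk1 and below Y1F for map1. No mutant pair was called, the widest differences being −0.21 ± 0.17 for spk1 (adjusted p = 0.316) and −0.51 ± 0.28 for map1 (adjusted p = 0.157), both S2A against Y1F.

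Of the 3 other members, isp3 (SPAC1F8.05), a spore wall protein, had 9.30 and 10.8 CPM in WT, 5.73 and 5.33 in S2A, 6.08 and 6.85 in S7A, and 3.73 and 4.28 in Y1F. It was lower in Y1F than in S7A (−0.73 ± 0.16, adjusted p = 0.00267). For isp3, S2A against Y1F was 0.47 ± 0.17 (adjusted p = 0.0384). That call was lost without either S2A library or either Y1F library, by DESeq2 and with only the compared strains fitted. SPCP20C8.02c, an uncharacterized protein, had 8.85 and 9.23 CPM in WT, 3.49 and 5.87 in S2A, 2.92 and 2.90 in S7A, and 1.42 and 1.501 in Y1F. S2A against Y1F was 1.65 ± 0.28 (adjusted p = 0.000397) and Y1F against S7A −1.04 ± 0.30 (adjusted p = 0.0119; uncalled at −1.027 without S7A replicate 2 and −1.079 without Y1F replicate 2). Its S2A to S7A difference of 0.61 ± 0.24 (adjusted p = 0.0487) was uncalled without any 1 library other than S2A replicate 1, and was 0.19 without S2A replicate 2. It was also uncalled by DESeq2 (0.62), with RLE scaling (0.5965) and with only the compared strains fitted (0.60).

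mug14 (SPBC359.06), annotated as an adducin of the actin cytoskeleton, met the rule on means whose libraries disagreed. It had 9.87 and 2.67 CPM in WT, 1.49 and 4.25 in S2A, 1.61 and 2.30 in S7A, and 6.57 and 0.637 in Y1F. WT replicate 2 lay below S2A replicate 2 and Y1F replicate 1, so the groups overlapped. No mutant pair was called, and the SE of the differences was 0.8355 to 0.8711.

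Over all members, 13 of 23 differed between S2A and S7A at an adjusted p under 0.05, 5 higher and 8 lower in S2A, where 53.1% of the 6243 genes tested were called, 28.3% higher and 24.9% lower. All 23 passed the filter on low counts. Between S2A and Y1F 14 differed (9 higher, 5 lower in S2A), against 48.9% of all genes (25.1% higher, 23.7% lower), and between Y1F and S7A 13 differed (3 higher, 10 lower in Y1F), against 48.7% of all genes (25.7%, or 1606, higher and 1436 lower). The shares of members, 56.5%, 60.9% and 56.5%, were thus near those of all genes. The median size of a member's difference was 0.42, 0.47 and 0.31 on the log2 scale, against 0.21, 0.19 and 0.20 for all genes. The rule used the mutant means of the members, so these sizes are a description. In all, 19 members were called in at least 1 pair, and the 4 called in none were mal1, spk1, map1 and mug14. The S2A to S7A count was 8 without S7A replicate 2. The S2A to Y1F count was 9 without S2A replicate 2 and 8 without Y1F replicate 2, and the Y1F to S7A count was 8 without S7A replicate 2 or Y1F replicate 2.

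**Figure D2:**
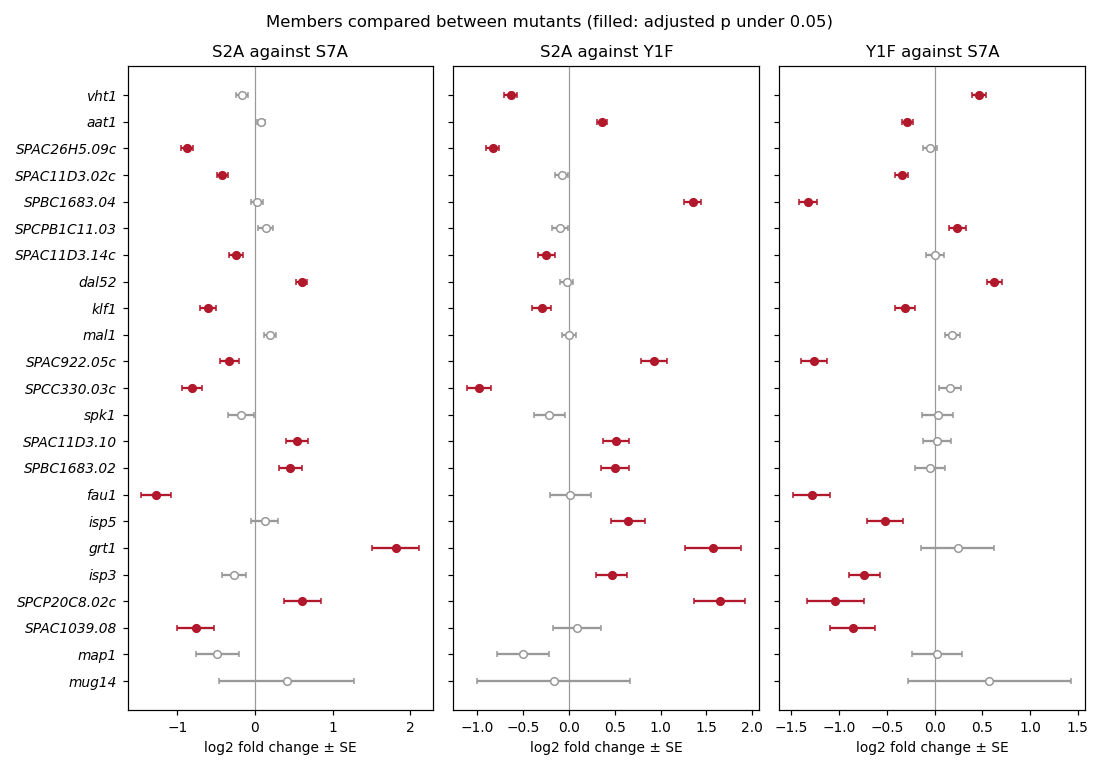
Difference of each member between mutants, as log2 fold change with bars of 1 SE, for S2A against S7A, S2A against Y1F and Y1F against S7A. Filled red points were called at an adjusted p under 0.05 and open grey points were not: 13, 14 and 13 of the 23 members were called.

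The members were not spread evenly along the chromosomes, a property the rule did not use, although most of the IDs it left out are near chromosome ends. The zone of the outermost 50 genes was set after the members' places had been seen, so the counts by place are a description. By gene order in the ASM294v3 annotation, 16 of 23 members (69.6%) were among the outermost 50 coding genes of a chromosome end, against 156 of 4707 other coding genes of at least 5 CPM (3.31%). Their median place was gene 41 from the nearest end, against gene 437 for the others. The start of chromosome I held 4 of them (isp3, SPAC11D3.02c, SPAC11D3.10 and SPAC11D3.14c), its end another 4 (SPAC922.05c, isp5, SPAC1039.08 and klf1), and the start of chromosome II held 6 (grt1, aat1, mug14, SPBC1683.02, SPBC1683.04 and mal1). SPCP20C8.02c and SPCC330.03c were near the start of chromosome III. None was among the outermost 50 genes at the end of chromosome II or of chromosome III. The 7 members further in were vht1, SPAC26H5.09c, SPCPB1C11.03, dal52, spk1, fau1 and map1, of which map1 and dal52 were at genes 108 and 112 from an end.

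**Figure D3:**
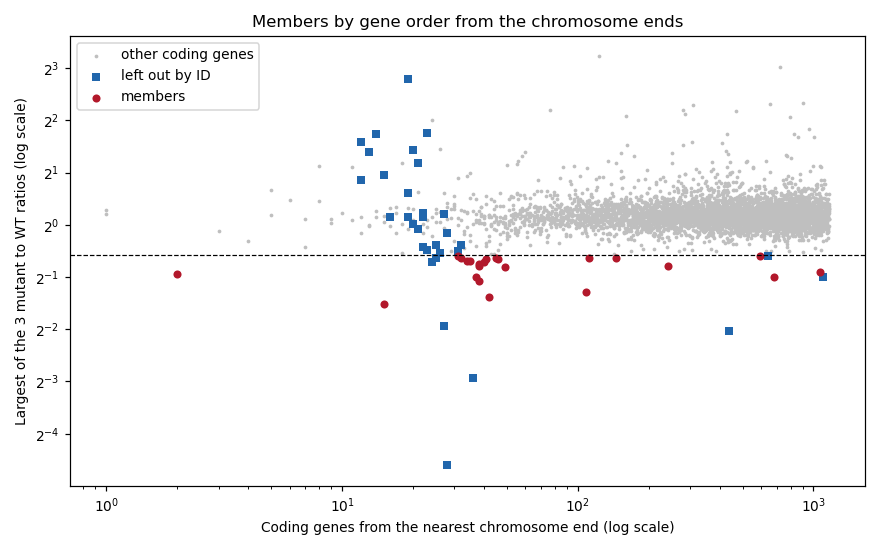
Every coding gene of at least 5 CPM in WT, by its place in gene order from the nearest chromosome end (log axis) and the largest of its 3 mutant to WT ratios (log axis). Red points are the 23 members, blue squares are genes left out by ID and the dashed line is the 0.67 limit; 16 red points lie within the outermost 50 genes.

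Outer and inner members also differed in which mutant was lowest, as a description of few genes. The lowest mutant was taken by mean ratio, whether or not the mutants were called different. SPBC1683.02, for example, counted as lowest in Y1F at a mean of 5.67 CPM, against 5.70 in S7A. Of the 16 outer members 8 were lowest in Y1F, 4 in S2A and 4 in S7A. Of the 7 inner members 5 were lowest in S2A, 2 in S7A and 0 in Y1F. Between Y1F and S7A, 9 outer members were lower and 0 higher in Y1F, while 1 inner member was lower and 3 were higher. Some of these calls were lost on leaving out single libraries: isp5 (−0.52), klf1 (−0.31), SPAC1039.08 and SPCP20C8.02c of the outer members, and SPCPB1C11.03 of the inner. Those of isp5, klf1 and SPCPB1C11.03 were also lost by DESeq2. Of all 6243 genes tested, 1436 were lower and 1606 higher in Y1F. The difference between outer and inner members was not tested.

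Many of the outer members lay close to each other but seldom side by side. Other members lay far apart, with up to 1218 coding genes between neighbouring members (SPAC11D3.14c and spk1). isp5 and SPAC1039.08 were the only adjacent members, with 2 coding genes between SPAC1039.08 and klf1. At the start of chromosome II, aat1, mug14, SPBC1683.02, SPBC1683.04 and mal1 followed each other with 2, 1, 1 and 2 coding genes between them. aat1 was also next to pfl7, a gene left out by ID.

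The coding genes next to members, which the rule did not choose, were tested against WT. Of 41 such genes 40 were tested and 9 were lower in all 3 mutants (22.5%), against 6.56% of 5015 coding genes tested. None was higher in all 3, against 4.85% of coding genes. Singly, 14 were lower and 9 higher in S2A, 20 lower and 3 higher in S7A, and 20 lower and 3 higher in Y1F. Of all genes 26.6%, 24.3% and 17.4% were lower and 28.8%, 23.1% and 17.6% higher. Among the outermost 50 genes, 26 neighbours were tested and 8 were lower in all 3. There 27 of 156 non-members of at least 5 CPM in WT were also lower in all 3 (17.3%), and these sets share genes. Of the 9 neighbours lower in all 3, 8 were thus among the outermost 50 genes, as were 27 of the 41 neighbours. The ninth was clr2, next to vht1, a subunit of a histone deacetylase complex that acts in heterochromatin, at −0.28 ± 0.073 in S2A (adjusted p = 0.00573; uncalled without S2A replicate 1, −0.24). S7A gave −0.40 ± 0.072 (adjusted p = 0.000764) and Y1F gave −0.45 ± 0.074 (adjusted p = 0.000549). It was named after its values were seen.

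The largest of these changes was in alr2, the alanine racemase gene next to aat1. It had 2.29 and 2.74 CPM in WT, 0.349 and 0.202 in S2A, 1.13 and 0.953 in S7A, and 0.149 and 0.182 in Y1F. All mutant libraries lay below WT. The log2 change was −3.142 ± 0.35 in S2A (adjusted p = 1.15e-05). It was −1.28 ± 0.26 in S7A (adjusted p = 0.00176; uncalled by DESeq2, −1.27) and −3.885 ± 0.39 in Y1F (adjusted p = 1.32e-05). SPAC922.06, a reductase gene beside SPAC922.05c, had 17.45 and 17.03 CPM in WT, 14.25 and 13.6 in S2A, 11.5 and 11.3 in S7A, and 3.81 and 4.18 in Y1F. Like its neighbour it was lowest in Y1F, where it changed by −2.15 ± 0.125 (adjusted p = 1.01e-07). In S2A it was called at −0.34 ± 0.10 (adjusted p = 0.0131), but not without WT replicate 1 (−0.31) or by DESeq2 (−0.35).

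SPAC922.09, on the other side of SPAC922.05c, had 1.27 and 1.44 CPM in WT and 0.0747 to 1.001 CPM in the mutants. SPBPB8B6.02c, a urea transporter gene next to grt1, had 0.764 and 1.16 CPM in WT and 0.149 to 0.539 CPM in the mutants. These and SPBPB8B6.03 passed the filter on low counts (about 0.616 CPM in 2 libraries) only through WT, so their tests are not given. Without these 3 genes, an alternative chosen after seeing the data, the neighbours lower in all 3 mutants were 9 of 37, and 12, 19 and 19 were lower in S2A, S7A and Y1F.

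SPAC11D3.11c, next to SPAC11D3.10 and annotated as a truncated zinc-cluster protein, had 42.0 and 36.1 CPM in WT, 31.8 and 29.1 in S2A, 11.9 and 11.2 in S7A, and 19.8 and 20.3 in Y1F, and it changed by −1.76 ± 0.097 in S7A (adjusted p = 5.12e-08). amf1, a transporter gene between SPBC1683.02 and SPBC1683.04, was lower in S2A, S7A and Y1F by −0.44 ± 0.049, −0.95 ± 0.0504 and −1.08 ± 0.051 (adjusted p = 1.005e-05, 3.52e-08 and 1.83e-08). abc3, an ABC transporter gene next to mug14, was lower in S7A and Y1F by −1.545 ± 0.18 and −1.28 ± 0.18 (adjusted p = 2.775e-05 and 0.000163). In S2A abc3 was at −0.44 ± 0.17 (adjusted p = 0.0397), and the call was lost without WT replicate 2 (−0.19), either S2A library (−0.45 and −0.43), by DESeq2 (−0.45), with TMM on coding genes (−0.42) and with a filter of 5 CPM (−0.43).

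Neighbours also went the other way within the same stretches. pho841, a phosphate transporter gene between mug14 and SPBC1683.02, had 179 and 178 CPM in WT, 224 and 225 in S2A, 167 and 174 in S7A, and 83.6 and 83.0 in Y1F. It was higher in S2A (0.29 ± 0.045, adjusted p = 0.00013) and lower in Y1F (−1.15 ± 0.047, adjusted p = 3.92e-09). hhy1, next to isp3, was higher in S2A (1.09 ± 0.21, adjusted p = 0.000856) and lower in Y1F (−0.80 ± 0.27, adjusted p = 0.0358). The latter call was lost without WT replicate 1 (−0.67), Y1F replicate 2 (−0.57) or either S7A library (−0.80), by DESeq2 (−0.79) and with only the compared strains fitted (−0.80). SPAC1B3.15c, annotated like vht1 as a vitamin H transporter and lying beside it, had 30.6 and 30.7 CPM in WT and 26.9 to 34.5 CPM in the mutants, and was called in none of them (smallest adjusted p = 0.0543, in S7A). These 3 genes, amf1 and abc3 were named after their values were seen.

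**Figure D4:**
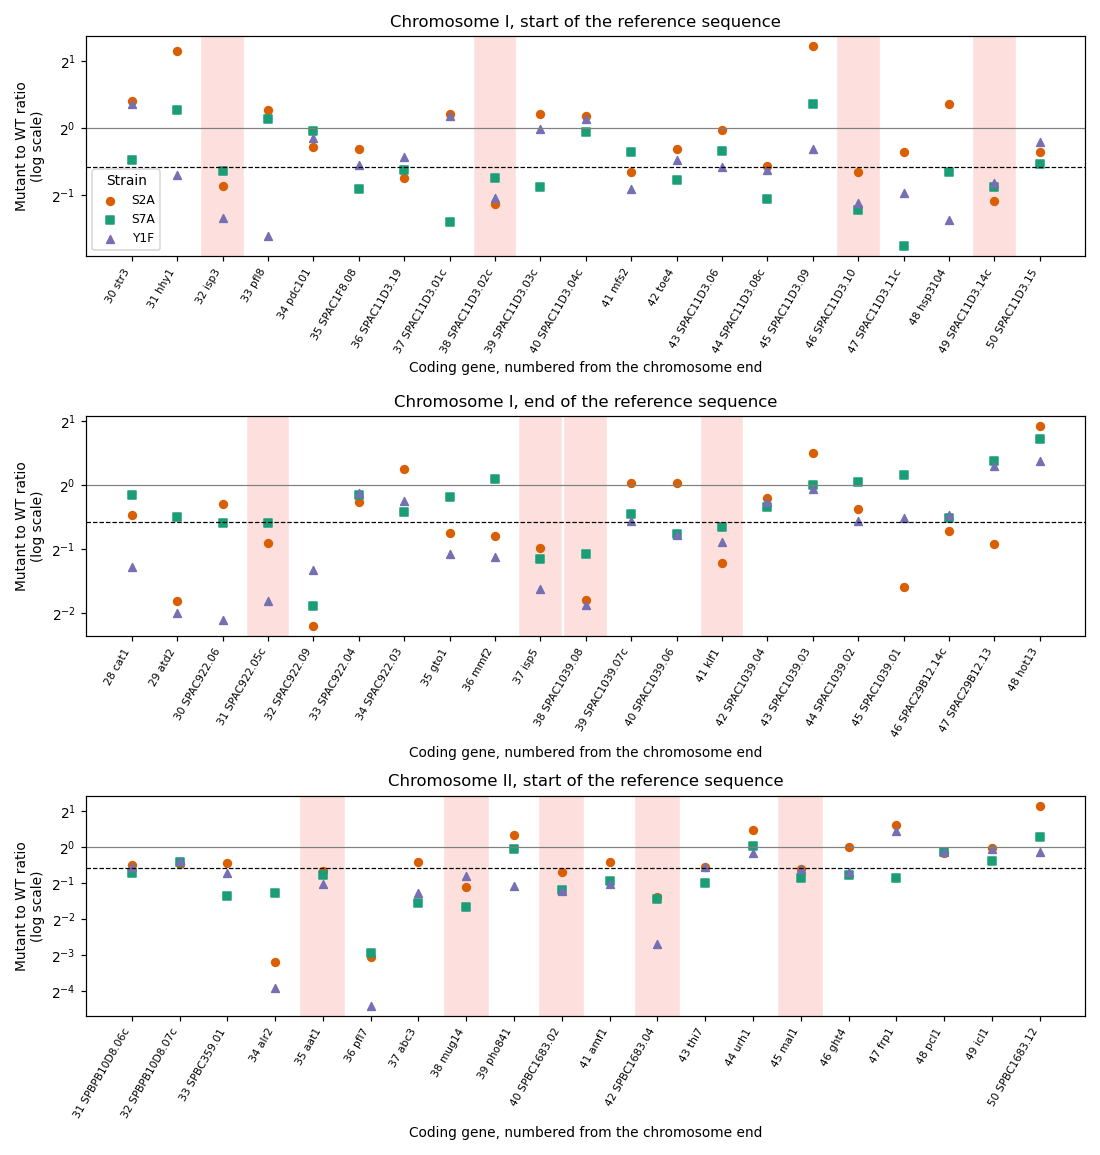
Mutant to WT ratio (log axis) of consecutive coding genes of at least 1 CPM in WT in the 3 outer stretches that hold most members, with genes numbered from the chromosome end. Shaded columns are members, the solid line is a ratio of 1 and the dashed line the 0.67 limit; non-members such as alr2 and amf1 lie below WT in all mutants and pho841 lies above WT in S2A.

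Non-member coding genes of the outer regions were counted by chromosome end, with the IDs left out by the rule set aside. Of 156 such genes among the outermost 50, 27 were lower in all 3 mutants (17.3%), against 15 of 281 (5.34%) in the next 50 places, 39 of 567 (6.88%) in the following 100 and 204 of 3703 (5.51%) further in. The ends differed: 6 of 14 were lower in all 3 at the start of chromosome I, 6 of 15 at its end and 5 of 13 at the start of chromosome II. At the end of chromosome II it was 1 of 24, at the start of chromosome III 4 of 44 and at its end 5 of 46. By mutant, 53 of the 156 were lower in S2A, 61 in S7A and 66 in Y1F, and 35, 28 and 16 were higher. As shares these are 34.0%, 39.1% and 42.3% lower, against 30.2%, 22.1% and 16.2% of the 3703 genes further in, and 22.4%, 17.9% and 10.3% higher, against 23.8%, 26.03% and 19.3%. The S2A shares were thus near those further in. The 3 ends with the higher counts were also those with 14 of the 16 outer members, and the differences between ends were not tested. Only genes of at least 5 CPM in WT were counted, so genes low in WT and raised in a mutant could not enter. Of the outermost 50 genes, 25 and 23 reached this level at the start and end of chromosome I. Chromosome II had 28 and 33, and chromosome III had 46 at each end.

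**Figure D5:**
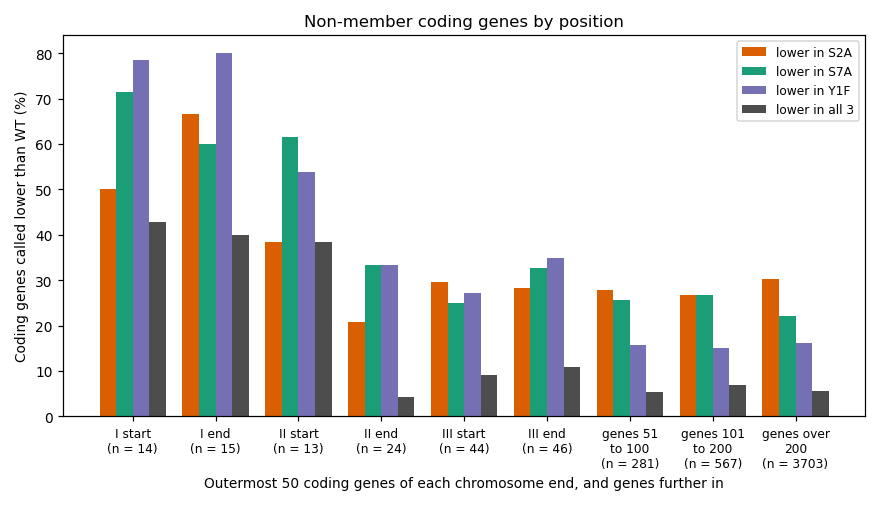
Share of non-member coding genes of at least 5 CPM called lower than WT (adjusted p under 0.05), for the outermost 50 genes at each chromosome end and for 3 groups further in, with IDs left out by the rule set aside. The dark bars, lower in all 3 mutants, are 42.9%, 40.0% and 38.5% at both ends of chromosome I and the start of chromosome II, and between 4.17% and 10.9% in the other groups.

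Noncoding RNAs opposite the members were followed because they were not part of the rule. Of the annotated RNAs with at least 50% of their own length across from a member, 7 were found at 6 members. In S2A 2 were higher and 3 lower (28.8% and 26.6% of all genes), in S7A 0 higher and 5 lower (23.1% and 24.3%), and in Y1F 0 higher and 5 lower (17.6% and 17.4%). No label or header states whether counting used strand, so reads of overlapping genes on opposite strands may not have been told apart.

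SPNCRNA.609, opposite SPAC11D3.14c, held the most counts. It is annotated as a noncoding RNA and possible alternative UTR (untranslated region). Whether SPNCRNA.609 is part of a neighbouring transcript was not tested. It stood at 28.2 and 33.9 CPM in WT, 80.4 and 65.3 in S2A, 15.3 and 12.4 in S7A, and 20.8 and 24.97 in Y1F. S2A was higher by 1.20 ± 0.11 (adjusted p = 2.075e-06) and S7A lower, at −1.18 ± 0.13 (adjusted p = 2.23e-05). Y1F was at −0.47 ± 0.12 (adjusted p = 0.0112; uncalled without WT replicate 2, −0.36, or Y1F replicate 1, −0.37), while SPAC11D3.14c stood at 0.47, 0.55 and 0.57 of WT. SPNCRNA.1317, opposite mal1, was the other RNA higher in S2A (1.251 ± 0.30, adjusted p = 0.00387). It was not called in S7A (−0.26 ± 0.36, adjusted p = 0.582) or Y1F (−0.46 ± 0.38, adjusted p = 0.365). SPNCRNA.1318, also opposite mal1, was lower in S7A (−0.96 ± 0.31, adjusted p = 0.0238; uncalled without WT replicate 1, −0.58, S7A replicate 1, −0.877, or S7A replicate 2, −1.079). In Y1F it was at −1.33 ± 0.34 (adjusted p = 0.00923; uncalled without WT replicate 1, −0.96, or Y1F replicate 2, −0.79).

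SPNCRNA.606, opposite isp3, was lower in every mutant library than in WT, like isp3, at 1.98 and 2.46 CPM in WT, 0.548 and 0.742 in S2A, 0.894 and 0.780 in S7A, and 0.597 and 0.364 in Y1F. The changes in S2A, S7A and Y1F were −1.84 ± 0.32, −1.41 ± 0.30 and −2.32 ± 0.34 (adjusted p = 0.000408, 0.00198 and 0.000288). SPNCRNA.1301, opposite grt1, was lower at −1.71 ± 0.31, −0.85 ± 0.27 and −1.64 ± 0.31 in the same order (adjusted p = 0.000567, 0.0221 and 0.00157). The S7A call was lost without WT replicate 2 (−0.62), S7A replicate 1 (−0.791) or S7A replicate 2 (−0.922), and by DESeq2 (−0.85). SPNCRNA.1086, opposite SPAC1039.08, is also annotated as a possible alternative UTR. It was at −1.13 ± 0.32, −1.88 ± 0.35 and −1.53 ± 0.34 in S2A, S7A and Y1F (adjusted p = 0.0105, 0.000901 and 0.00465). The S2A call was lost without S2A replicate 2 (−0.74) or WT replicate 2 (−0.97), and the Y1F call without Y1F replicate 2 (−1.11).

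Gene lists that hold a member gave the wider pathway, with members set apart. Of all genes tested, 26.6%, 24.3% and 17.4% were lower and 28.8%, 23.1% and 17.6% higher in S2A, S7A and Y1F. The amino acid and peptide transport list held aat1 and isp5. Of its 8 other genes 7 were lower and 0 higher in S2A, 4 lower and 2 higher in S7A, and 4 lower and 3 higher in Y1F, with medians of −0.37, −0.11 and −0.04 against 0.01, −0.01 and 0.01 for all genes. Lower in all 3 were cat1, a transporter of basic amino acids, and per1, an amino acid permease. In this list cat1 and put4 have SPAC869 IDs, which the rule left out, so neither could become a member. For S2A and Y1F cat1 was at −0.52 ± 0.067 and −1.36 ± 0.072 (adjusted p = 3.74e-05 and 4.57e-08). Its S7A value of −0.17 ± 0.065 (adjusted p = 0.0482) lost its call without any 1 of the WT, S2A or S7A libraries (−0.22 to −0.12), by DESeq2 (−0.16) and with RLE scaling (−0.17). per1 was at −0.25 ± 0.074, −0.45 ± 0.074 and −0.41 ± 0.075 in S2A, S7A and Y1F (adjusted p = 0.0126, 0.000391 and 0.0012; uncalled in S2A without S2A replicate 1, −0.25).

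The early sexual differentiation list held spk1. Of its 14 other genes tested, 6 were lower and 4 higher in S2A, 8 lower and 0 higher in S7A, and 6 lower and 0 higher in Y1F, to be read against the same shares of all genes, with medians of −0.14, −0.29 and −0.12. Lower in all 3 were mei2, which is among the genes left out by ID, ste11 and ste4. ste11, a master regulator of mating and meiosis, had 70.9 and 81.1 CPM in WT, 22.9 and 17.3 in S2A, 63.7 and 53.9 in S7A, and 59.4 and 65.0 in Y1F, so that S7A and Y1F lay nearer to WT than S2A. Its S7A call was lost without S7A replicate 2 (−0.27), and its Y1F call without WT replicate 2 (−0.25) or Y1F replicate 1 (−0.28). ste4, an adaptor of the pheromone MAP kinase pathway that includes spk1, was at −2.68 ± 0.13, −1.33 ± 0.11 and −0.42 ± 0.10 in S2A, S7A and Y1F (adjusted p = 9.62e-09, 1.66e-06 and 0.00732). These list genes were singled out after their values were seen. The P-cell mating list held map1, and its 3 other genes were 2 higher and 1 lower in S2A, 1 higher and 2 lower in S7A, and not called in Y1F.

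At the edge of the rule, the members nearest the limit were SPAC26H5.09c, SPAC922.05c and SPCPB1C11.03, with largest ratios of 0.6615, 0.6605 and 0.6474. The genes nearest outside were SPCC576.19c (0.6753), thi7 (0.6769) and SPAC11D3.08c (0.6778). thi7, annotated as a transporter, lies next to SPBC1683.04, and SPAC11D3.08c is in the stretch at the start of chromosome I. By distance over the 8 libraries, in log2 CPM centred on WT, the non-members most like the median member were SPNCRNA.1087 (0.39), SPNCRNA.645 (0.59), jmj4 (0.68), rpb1 (0.72) and SPNCRNA.1487 (0.72). jmj4, annotated as a histone demethylase, had 44.7 and 53.6 CPM in WT, 22.4 and 22.3 in S2A, 36.3 and 33.0 in S7A, and 26.2 and 24.1 in Y1F.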

How the data were processed

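rRNA-depleted, strand-keeping total RNA libraries were read as pairs of 100 nt, per the labels' protocols. The deposited values are whole-number counts per gene ID, made by the authors. HISAT2, featureCounts, StringTie, DESeq2, deepTools and build ASM294v2 are named in the submitters' processing notes, without roles or versions. The ASM294v3 annotation gave names, strand, overlap and gene order (6797 of 7000 IDs matched), and no coordinates or sequence, because its build differs from that of the counts.

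CPM used column sums. Counts were tested in R 4.3.3 with edgeR 4.0.16: filterByExpr (minimum count 10, minimum total 15; 6243 genes), TMM scaling, a quasi-likelihood fit of all 8 libraries with 1 mean per strain (4 residual degrees of freedom), and Benjamini-Hochberg adjustment over all genes. An SE is the log2 fold change divided by the square root of F. The fit was tested on simulated data. Alternatives were DESeq2 1.42.0, RLE scaling, TMM on coding genes, 2 other filters, fewer groups, a replicate block and leaving out each library.

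The members and lists were chosen with earlier results of these data known. The count of other outermost genes was added after the data were seen. Members were described by the 10 highest WT means, the 10 lowest largest ratios, up to 5 called each way per mutant pair, adjacency, lists and nearness to the limit, and the few members outside this rule were added so that all 23 have values. Called neighbours and opposite RNAs with the largest changes were named, up to 5 of each; amf1, abc3, clr2, pho841, hhy1 and SPAC1B3.15c were named after their values were seen, and SPNCRNA.609 likewise, for its counts. Of 14 gene lists, 3 held a member and the other 11 held none and are not described. The zones of the outermost 50 and 100 genes, the counts by chromosome end and the split into outer and inner members were set after the members' places had been seen, and the role groups after their values. 1 fit gave all results reported, and the closing section gives the counts under the alternatives.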

Additional observations from a re-analysis of the deposited data

How the results depend on the processing

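The number of members was 5 with a ratio limit of 0.5, and 12 when both libraries of every mutant had to lie under 0.67 of the lower WT library. It was 26 with TMM-scaled CPM, 19 with a WT mean of at least 10 CPM, and 21 to 27 on leaving out 1 library. The members called ranged from 8 to 13 for S2A against S7A, from 8 to 14 for S2A against Y1F and from 8 to 13 for Y1F against S7A on leaving out 1 library, and were 9, 10 and 10 with DESeq2. In the same order they were 12, 14 and 12 with RLE scaling, 12, 12 and 13 with TMM on coding genes, 12, 13 and 13 with a filter of 5 CPM in 2 libraries, 13, 14 and 13 with no filter, and 13, 13 and 13 with only the compared strains fitted. The causes of these differences were not tested, and leaving out a library also leaves fewer samples. Adjacent genes lower in all 3 mutants numbered 6 to 10 on leaving out 1 library and 6 with DESeq2, and other outermost genes 21 to 26 and 20. Under RLE scaling, TMM on coding genes, the 5 CPM filter, no filter, fewer strains and the block, adjacent genes numbered 9, 8, 7, 9, 10 and 9, and other outermost genes 27, 25, 26, 27, 25 and 25. Opposite RNAs higher in S2A were 1 with a filter of 5 CPM in 2 libraries, which tests fewer genes, and 2 under all other settings; in S7A and Y1F they were 0 under every setting. With the replicate number as a block, members called were 13, 14 and 12. Deviations of same-numbered libraries had correlations of mixed sign between strains, from −0.19 (WT and S2A) to 0.24 (WT and Y1F). The replicate numbers thus gave no pairing common to all strains. Whether some of the libraries share a batch was not tested. The block left SPAC922.05c (S2A against S7A, −0.33), SPCPB1C11.03 (Y1F against S7A, 0.24) and cat1 (S7A against WT, −0.17) uncalled. Over single genes, 139 of the repeated calls were lost and 1372 kept, and no direction reversed. The members with the widest SE were mug14, whose libraries disagreed, and grt1, which had few counts.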
